A study of Mus musculus with 2 samples.

Results

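The genes described here build the junctions through which cells hold on to each other: adherens junctions, tight junctions, desmosomes and gap junctions. The set held 52 genes, chosen by name as cadherins, catenins, claudins, junction adaptors, nectins, desmosomal proteins, connexins and polarity proteins. A total of 14450 genes had a sense tag that matched no other gene, and 34 of the 52 were among them. Digital gene expression (DGE) tag profiling was run on the mouse cell lines GC-1spg and GC-2spd (ts), with 1 library each. GC-1spg was derived from type B spermatogonia of a 10-day-old mouse and transformed with pSV3-neo. GC-2spd (ts) was derived from spermatocytes of a 6-week-old mouse and transformed with the SV40 large T antigen. Both lines thus carry SV40 sequences, both were grown in DMEM with bicarbonate (1.5 g/L) and FBS (10%), and neither was grown with other cells of the testis. GC-1spg is described as lying between type B spermatogonia and primary spermatocytes, and GC-2spd (ts) as premeiotic and no longer able to differentiate. With 1 library per line, no difference has a replicate check, and each test compares the libraries, not the cell types.

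Classical cadherins span the membrane and bind a cadherin of the neighbouring cell, and catenins tie their tails to actin. Nectins and afadin form a parallel link, and claudins, occludin and the JAM proteins seal tight junctions, whose scaffold is built by the Tjp proteins and cingulin. Desmosomes tie keratin filaments together, connexins form channels between cells, and Crumbs and Par proteins set up polarity. In the seminiferous tubule these complexes join germ cells to Sertoli cells and Sertoli cells to each other, where they form the blood-testis barrier. Germ cells are moved past that barrier as they enter meiosis.

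In DGE, *Nla*III cuts the cDNA at CATG and a tag of 21 bases, CATG and the 17 bases after it, is read near the 3′ end of the transcript. A gene's count is the sum of the tags that matched only that gene in sense, and TPM is that count per 1000000 clean tags. Since a transcript gives about 1 tag whatever its length, levels of different genes are set side by side without a length correction. The libraries held 5072149 clean tags in GC-1spg against 4726808 in GC-2spd (ts), so that 1 copy was worth 0.197 and 0.212 TPM. Tags seen once had been removed. An unlisted tag therefore had at most 1 copy, for which the one-sided 95% Poisson limit is 4.74 copies, or 0.935 TPM in GC-1spg against 1 TPM in GC-2spd (ts). A gene was called where its log2 ratio was 1 or more in size and its false discovery rate (FDR) no higher than 0.001, by the two-sided Audic-Claverie test with Benjamini-Hochberg adjustment over all 14450 genes. Intervals are exact 95% intervals and, as with the limits, they cover only counting error, since PCR copies cannot be told from separate molecules.

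The labelled germ cell origin was checked against 22 germ cell genes. Only *Uchl1* (329 tags in GC-1spg against 66 in GC-2spd (ts)) and *Tdrd1* (0 and 4 tags) were listed, and *Ddx4*, *Dazl*, *Stra8* and *Sycp3* were at 0 in both libraries. Of 16 epithelial genes 9 were listed, with a summed level of 788 TPM in GC-1spg against 12.5 TPM in GC-2spd (ts), carried by the keratins *Krt19* (2666 and 26 tags) and *Krt14* (1199 and 5 tags), while *Krt5*, *Esrp1*, *Grhl2*, *Ovol1* and *Elf3* were at 0. Of 11 fibroblast genes 9 were listed (3770 and 2645 TPM), of 12 Sertoli cell genes 8 (318 and 114 TPM), of 9 endothelial genes 3 (12.6 and 40.4 TPM, with *Pecam1* at 0), and all 6 peritubular myoid genes (13 and 123 TPM). The myoid level was carried by *Acta2* (50 and 555 tags), the only myoid gene called. *Cnn1* had 5 and 15 tags, *Des* 11 and 4, and *Myh11*, *Tagln* and *Actg2* had 0 in GC-1spg against at most 3 in GC-2spd (ts). Leydig cell genes (2 of 7) and macrophage genes (1 of 6) summed to at most 1.06 TPM. Apart from *Uchl1* and *Tdrd1*, the germ cell genes thus had no listed tag of their own in either library. Tags shared with other genes matched *Sycp1* (10 and 112), *Piwil2* (14 and 12), *Gfra1* (3 and 11) and *Sycp3* (2 and 0). Levels under the limits given above remain possible for the unlisted genes. The keratins were lower in the same library as *Ctnnd1*, *Jup*, *Cgn*, *F11r* and *Crb2*, and their part in those differences was not tested.

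The junction genes as a whole had similar totals in both lines, while 10 of them were called in one direction or the other. Their tags summed to 7577 in GC-1spg against 6342 in GC-2spd (ts), or 1494 and 1342 TPM. *Cdh2*, *Cdh11*, *Cgnl1*, *Nectin1* and *Pkp2* were higher in GC-2spd (ts), and *Ctnnd1*, *Jup*, *Cgn*, *F11r* and *Crb2* were lower. The 10 called genes were 29.4% of the 34 listed members, where 19.5% of all genes were called. By direction, 14.7% of the listed members were higher against 11.7% of all genes, and 14.7% were lower against 7.84%. Among genes with at least 100 tags over both libraries, 8 of 20 members (40%) and 25.3% of 7100 genes were called. The median log2 ratio of GC-2spd (ts) over GC-1spg was 0.06 over the 27 members listed in both libraries and 0.16 over all 11373 genes listed in both. The other 7 listed members had tags in 1 library only. No claim that junction genes changed more often than other genes is made from these shares.

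**Figure D1:**
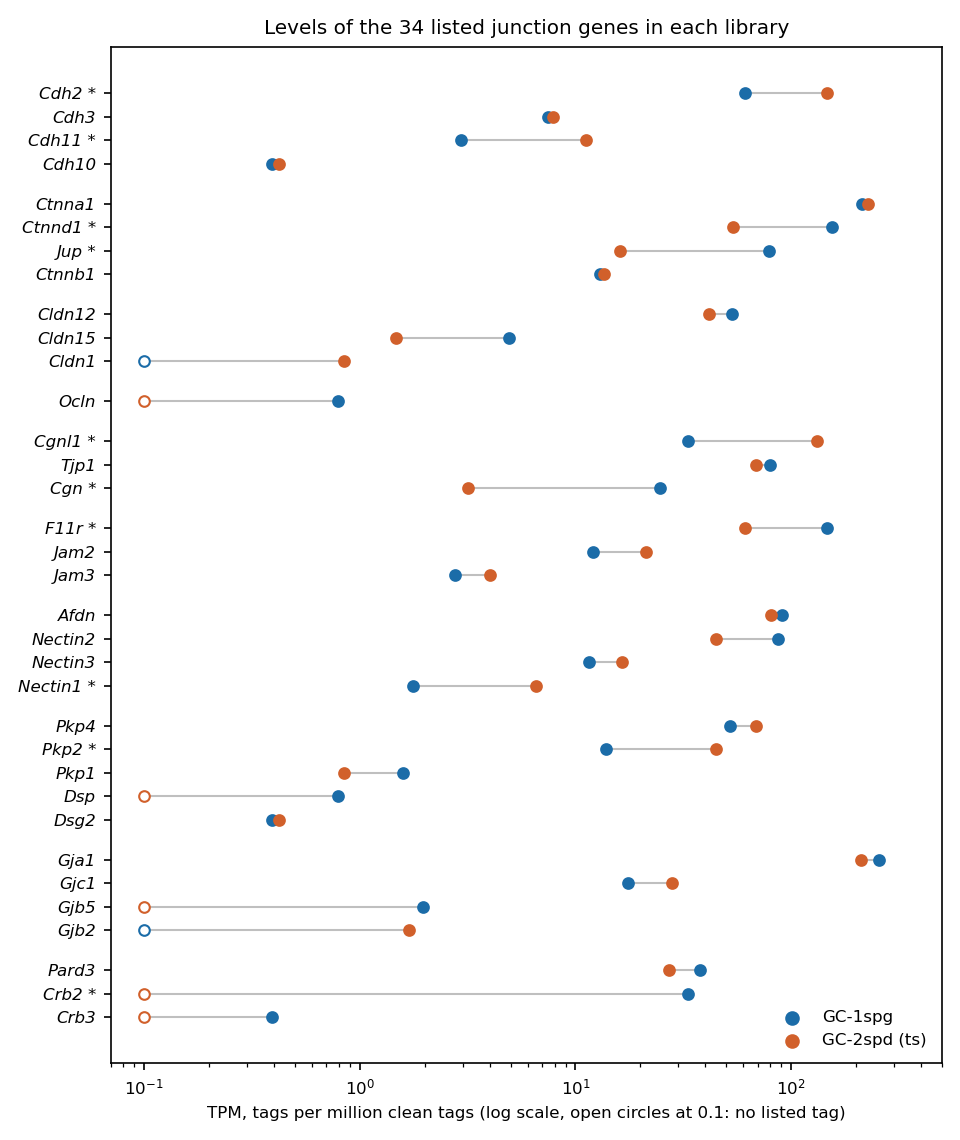
Level of each listed junction gene in TPM (tags per 1000000 clean tags, log scale) in GC-1spg (blue) and GC-2spd (ts) (orange), 1 library each, grouped by role. Open circles at the left mark a library without a listed tag, and asterisks mark the 10 called genes. *Gja1* and *Ctnna1* were the most abundant by tags of their own, with the tag shared by *Ctnnb1* and *Ulk4* left out, and *Crb2* ran from 33.1 TPM to no listed tag.

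Of the 52 genes, 18 (34.6%) had no listed tag in either library. Among the cadherins these were *Cdh1*, the epithelial E-cadherin, *Cdh4*, *Cdh5*, the endothelial cadherin, *Cdh6*, *Cdh13* and *Cdh15*. *Epcam*, an epithelial adhesion molecule, was also unlisted. Among the claudins, *Cldn2*, *Cldn3*, *Cldn4*, *Cldn5*, *Cldn6*, *Cldn7* and *Cldn11* were unlisted; *Cldn11* is a main claudin of the Sertoli cell barrier. The tight junction genes *Marveld2* and *Tjp3* and the desmosomal genes *Dsc2* and *Pkp3* completed the list. Each of the 18 has between 4 and 72 tags in the reference that match no other gene, so each could have been counted. No tag shared with other genes pointed to any of them, and only *Cdh6* had antisense tags (4 and 3). *Marveld2* was unlisted against all transcripts but had 2 and 9 tags when only the longest transcript of each gene was used. An unlisted gene may still have been present, since a missing tag allows levels up to the limits given above.

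Of the 10 cadherins, 4 were listed, and their sum was 72 TPM in GC-1spg against 166 TPM in GC-2spd (ts). *Cdh2* encodes N-cadherin, the cadherin of mesenchymal and neural cells that also joins Sertoli and germ cells. It had 310 tags (61.1 TPM) in GC-1spg against 695 tags (147 TPM) in GC-2spd (ts), and the log2 ratio was 1.27 (1.07 to 1.46). That is 2.41-fold higher in GC-2spd (ts), with an Audic-Claverie FDR of 2.16e-39. *Cdh11*, a cadherin of mesenchyme and bone, had 15 tags (2.96 TPM) and 53 tags (11.2 TPM), 3.79-fold higher in GC-2spd (ts) with a log2 ratio of 1.92 (1.07 to 2.86). Its call was lost with only the CATG site nearest the 3′ end counted (log2 ratio 1.10) and with shared tags added (0.73). *Cdh3*, the P-cadherin, stood at the same level in both libraries within counting error, with 38 and 37 tags and a log2 ratio of 0.06 (−0.63 to 0.76). *Cdh10* had 2 tags in each library. The listed *Cdh3* (chr8:106510891-106557297) and the unlisted *Cdh1* (chr8:106603351-106670246) lie in GRCm38 on the same strand with 46.1 kb between them.

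The tags behind *Cdh11* and *Cdh3* are shown because the first carried the rise, and the second held most of the tags of *Cdh3*. Capitals mark the *Nla*III site. The *Cdh11* tag lies at chr8:102633578-102633598 on the minus strand, in the 3′ UTR in exon 13, with 7 and 44 copies. The *Cdh3* tag lies at chr8:106555656-106555676 on the plus strand, in the 3′ UTR in exon 16, with 23 and 27 copies.
Cdh11: CATGtacgaaaatgttacagc
Cdh3: CATGgctgagcccctctcaga

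All 4 catenins were listed, and they summed to 458 TPM in GC-1spg against 311 TPM in GC-2spd (ts). *Ctnna1*, the alpha-catenin that links the cadherin complex to actin, was nearly level, with 1080 tags (213 TPM) and 1075 tags (227 TPM). Its log2 ratio was 0.10 (−0.03 to 0.22). *Ctnnd1*, the catenin that binds cadherins close to the membrane and holds them at the cell surface, fell from 780 tags (154 TPM) to 253 tags (53.5 TPM). The log2 ratio was −1.52 (−1.73 to −1.32), 2.87-fold lower in GC-2spd (ts). *Jup* encodes plakoglobin, a relative of beta-catenin that serves adherens junctions and desmosomes. It fell from 398 tags (78.5 TPM) to 76 tags (16.1 TPM), a log2 ratio of −2.29 (−2.66 to −1.93), or 4.88-fold lower, with an Audic-Claverie FDR of 1.29e-47.

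*Ctnnb1* encodes beta-catenin, which holds cadherins and also acts in Wnt signalling, and its level depends on 1 tag. Counted by tags of its own it had 66 tags (13 TPM) and 64 tags (13.5 TPM), a log2 ratio of 0.06 (−0.46 to 0.58). A far more abundant tag, with 1173 copies (231 TPM) in GC-1spg against 761 (161 TPM) in GC-2spd (ts), matches *Ctnnb1* in sense and *Ulk4* in antisense and was left out as ambiguous. With sense matches preferred, *Ctnnb1* had 1242 and 829 tags, and its log2 ratio of −0.48 (−0.61 to −0.35) was not called. The direction of *Ctnnb1* therefore turned with the treatment of that tag.

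The tags of *Ctnnd1*, *Jup* and *Ctnnb1* are shown because they carry these counts. All 780 and 253 copies of *Ctnnd1* came from 1 site, at chr2:84600992-84601012 on the minus strand, in the 3′ UTR in exon 19. The main *Jup* tag (368 and 56 copies) lies at chr11:100370751-100370771 on the minus strand, in the 3′ UTR in exon 14. The last line gives the tag shared by *Ctnnb1* and *Ulk4*.
Ctnnd1: CATGggctttggggaccttta
Jup: CATGggtttgggggcgggggt
Ctnnb1 and Ulk4: CATGtttttgaacaaaaactt

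Of the 10 claudins, 3 were listed, and none was called. *Cldn12*, a claudin found in many tissues, had 269 tags (53 TPM) and 196 tags (41.5 TPM), a log2 ratio of −0.36 (−0.63 to −0.08). It held nearly all claudin tags in both libraries. *Cldn15*, which forms a sodium-selective pore, had 25 tags (4.93 TPM) and 7 tags (1.48 TPM), and its log2 ratio of −1.73 (−3.19 to −0.48) missed the FDR threshold (Audic-Claverie FDR 0.00678). *Cldn1*, an epithelial barrier claudin, had 0 and 4 tags. *Ocln*, occludin, had 4 and 0 tags, while its neighbour *Marveld2* was unlisted. The counts of *Cldn1* and *Ocln* lie under the limit for a missing tag, so no fold is given.

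The tight junction adaptors moved in opposite directions. *Cgnl1*, paracingulin, an adaptor on the inner side of tight and adherens junctions, rose from 169 tags (33.3 TPM) to 623 tags (132 TPM). This was 3.96-fold higher in GC-2spd (ts), with a log2 ratio of 1.98 (1.74 to 2.24) and an Audic-Claverie FDR of 2.29e-67. *Cgn*, cingulin, its closest relative, fell from 125 tags (24.6 TPM) to 15 tags (3.17 TPM). This was 7.77-fold lower, with a log2 ratio of −2.96 (−3.84 to −2.18). *Cgn* was thus somewhat below *Cgnl1* in GC-1spg (24.6 against 33.3 TPM), and far below it in GC-2spd (ts). *Tjp1*, the scaffold that ties claudins and JAM proteins to actin, was not called, with 406 tags (80 TPM) and 325 tags (68.8 TPM) and a log2 ratio of −0.22 (−0.43 to −0.01).

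The main tags of this pair are shown because each held nearly the whole count of its gene. The *Cgnl1* tag (167 and 599 copies) lies at chr9:71626534-71626554 on the minus strand, in the 3′ UTR in exon 19. The *Cgn* tag (112 and 15 copies) lies at chr3:94760148-94760168 on the minus strand, in the 3′ UTR in exon 21. A tag with 9818 and 5567 copies also matches *Cgn*, but it matches 405 genes in sense and was not counted. A like tag of *Jup*, with 1427 and 1512 copies, matches 192 genes. With such tags added to every gene they match, the log2 ratio of *Cgn* was −0.73 and that of *Jup* −0.10, and neither was called.
Cgnl1: CATGgataaagcaaggtttcc
Cgn: CATGatttaaaagaagatatt

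**Figure D2:**
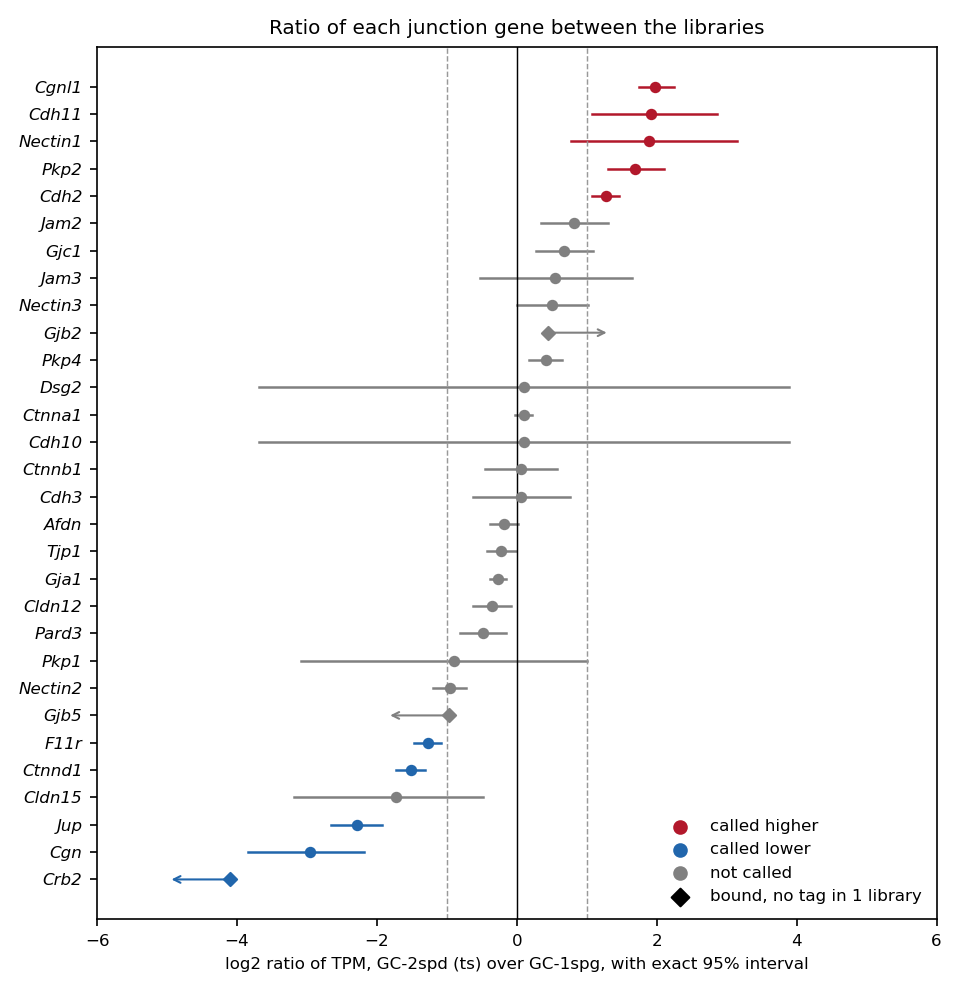
Log2 ratio of TPM, GC-2spd (ts) over GC-1spg, with the exact 95% interval, for the junction genes that allow one. Diamonds with arrows are bounds for genes listed in 1 library only, and dashed lines stand at the ratio threshold of 1. The called genes run from *Cgnl1* at 1.98 down to *Cgn* at −2.96 and the bound of *Crb2*.

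The JAM proteins are immunoglobulin-like molecules of tight junctions, and all 3 were listed. *F11r*, which encodes the JAM of epithelia and endothelia, fell from 747 tags (147 TPM) to 288 tags (60.9 TPM), a log2 ratio of −1.27 (−1.47 to −1.08), or 2.42-fold lower. *Jam2* had 61 tags (12 TPM) and 100 tags (21.2 TPM), and its log2 ratio of 0.81 (0.34 to 1.30) was not called. *Jam3*, which germ cells need to polarize as spermatids, had 14 and 19 tags. *F11r* was the most abundant of the 3 in both libraries.

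Nectins bind each other across the cell border and bind afadin inside the cell. *Nectin1* rose from 9 tags (1.77 TPM) to 31 tags (6.56 TPM), a log2 ratio of 1.89 (0.78 to 3.14). Its Audic-Claverie FDR of 0.000922 lay just inside the threshold, and the call was lost under each of the 3 other scalings (log2 ratio 1.71 to 1.80). *Nectin2*, the nectin of Sertoli cells, had 441 tags (86.9 TPM) and 212 tags (44.9 TPM). Its log2 ratio of −0.95 (−1.20 to −0.72) fell short of the ratio threshold at an Audic-Claverie FDR of 3.21e-15, and it was called under the same 3 scalings (−1.04 to −1.13), with the longest transcript per gene (−1.19) and with antisense tags added (−1.17). *Nectin3*, the nectin of germ cells, had 59 tags (11.6 TPM) and 78 tags (16.5 TPM). *Afdn*, afadin, was not called at 461 tags (90.9 TPM) and 379 tags (80.2 TPM), with a log2 ratio of −0.18 (−0.38 to 0.02). *Nectin2* was the most abundant nectin in both libraries.

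Of the 7 desmosomal genes, 5 were listed, but the desmosomal cadherin and desmoplakin were at or near 0. *Dsg2*, a desmosomal cadherin, had 2 tags in each library, all matched with 1 mismatch. Tags shared with other genes (13 and 8) also matched *Dsg2* and were not counted. *Dsp*, desmoplakin, which anchors keratin filaments, had 4 and 0 tags, and *Pkp1*, a plakophilin of stratified epithelium, had 8 and 4. The desmosomal count came instead from a pair of armadillo-repeat proteins that also work at adherens junctions. *Pkp2* rose from 70 tags (13.8 TPM) to 211 tags (44.6 TPM), 3.23-fold higher with a log2 ratio of 1.69 (1.30 to 2.10). *Pkp4* had 264 tags (52 TPM) and 326 tags (69 TPM), and its log2 ratio of 0.41 (0.17 to 0.65) was not called. The main *Pkp2* tag, shown because it carried the rise, had 65 and 207 copies and lies at chr16:16272624-16272644 on the plus strand, in the 3′ UTR in exon 13.
Pkp2: CATGtcacttccttaatgagc

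All 4 connexins were listed, and none was called. *Gja1* encodes the connexin that is most common in Sertoli cells and many cultured cells. With 1290 tags (254 TPM) and 998 tags (211 TPM) it was the most abundant member in GC-1spg and next to *Ctnna1* in GC-2spd (ts), by tags of their own. With sense matches preferred, *Ctnnb1* (1242 and 829 tags) stood above *Ctnna1* (1080 tags) in GC-1spg. The log2 ratio of *Gja1* was −0.27 (−0.39 to −0.15). *Gjc1*, a connexin of vascular and cardiac cells, had 89 tags (17.5 TPM) and 133 tags (28.1 TPM), a log2 ratio of 0.68 (0.28 to 1.09). The epithelial connexins were each listed in 1 library only: *Gjb2*, with 0 and 8 tags, was higher in GC-2spd (ts) by at least 1.36-fold, and *Gjb5*, with 10 and 0 tags, was lower by at least 1.96-fold. Neither met the FDR threshold (Audic-Claverie FDR 0.0142 and 0.00388).

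Among the polarity genes, *Crb2*, a Crumbs protein that organizes the apical membrane, had the largest ratio of the set. It had 168 tags (33.1 TPM) in GC-1spg against no listed tag in GC-2spd (ts), so that it was at least 17.1-fold lower there, with an Audic-Claverie FDR of 2.79e-47. It was the 1 member called under all 15 alternatives. *Crb3*, the Crumbs protein of most epithelia, had 2 and 0 tags. *Pard3*, the scaffold of the Par complex, had 191 tags (37.7 TPM) and 128 tags (27.1 TPM), and its log2 ratio of −0.48 (−0.81 to −0.15) was not called. The *Crb2* count came from 4 distinct tags, of which the 2 most abundant had 136 and 26 copies in GC-1spg against none in GC-2spd (ts). They are shown because the missing gene was missing at both sites. They lie on the plus strand at chr2:37798957-37798977 and chr2:37798535-37798555, both in the 3′ UTR in exon 13.
Crb2, site of 136 copies: CATGtctctgatggatgtttt
Crb2, site of 26 copies: CATGtgaactacaggtgtgtg

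**Figure D3:**
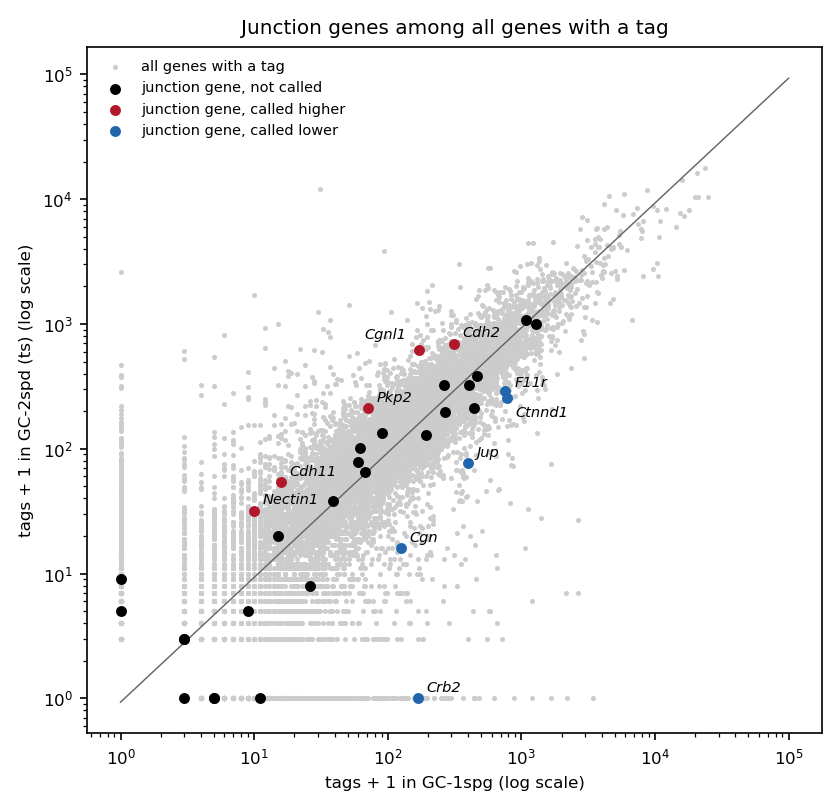
Tags + 1 in GC-1spg (x axis) and GC-2spd (ts) (y axis), both on log scales, for all 14450 genes with a tag (grey) and the 34 listed junction genes (black, or red and blue where called higher and lower). The line marks equal TPM. The called junction genes lie away from the line on either side, and *Crb2* lies on the row without a GC-2spd (ts) tag.

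Some junction genes differed in which CATG site was read as well as in their total. For the 12 members whose second tag had at least 20 copies over both libraries, the 2 most abundant tags were compared by Fisher's exact test with Benjamini-Hochberg adjustment. The use of the sites differed in 5 of the 12 (41.7%), namely *F11r*, *Jam2*, *Jup*, *Pard3* and *Ctnnb1*, where it differed in 11.2% of the 4208 genes that could be tested. *Crb2* had no tag in GC-2spd (ts) to compare. Without such genes the counts were 5 of 11 members (45.5%) and 11.3% of 4169 genes. With a second tag of at least 50 copies they were 1 of 4 members, *F11r*, and 18.3% of 2233 genes. In *Gja1*, with the most tags, the second tag took 11% of the pair in GC-1spg against 11.8% in GC-2spd (ts), and the sites of *Nectin2* (28.8% and 24%), *Cdh2* (4.53% and 6.64%) and *Nectin3* (37.8% and 40%) also gave no difference that passed the test.

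*F11r* showed the clearest switch. In GC-1spg the tag at the first site had 673 copies and the tag 132 bases further downstream had 0, while in GC-2spd (ts) they had 8 and 175 copies. The downstream tag thus took 0% of the pair in one library and 95.6% in the other (Fisher's exact test, FDR 8.48e-171). The last site, still further downstream, had 44 copies in GC-1spg against 91 in GC-2spd (ts). All 91 matched the reference exactly, whereas all 44 matched it with 1 mismatch. The sites lie on chromosome 1 on the plus strand, in the 3′ UTR in exon 10, at chr1:171463617-171463637, chr1:171463749-171463769 and chr1:171464561-171464581 in that order. They are shown because the gene was read from different sites in each line.
F11r, first site: CATGgtgtccgtacgaggtgg
F11r, second site: CATGgaccctttgaagatatg
F11r, last site: CATGgggacagtttaattaaa

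*Jam2* had no common main tag. Of its leading tags, the 3′ UTR tag in exon 10 at chr16:84822859-84822879 had 0 copies in GC-1spg against 43 in GC-2spd (ts), and a coding tag in exon 7 at chr16:84816341-84816361 had 39 and 0. A tag nearer the gene's end, at chr16:84825798-84825818, was read in both, with 14 and 28 copies. Between the exon 10 tags the share of the last one was 100% in GC-1spg against 39.4% in GC-2spd (ts) (Fisher's exact test, FDR 0.000162). With only the sites nearest the 3′ end of any transcript counted, *Jam2* was called higher in GC-2spd (ts), at a log2 ratio of 2.54. That setting kept both exon 10 tags and a tag of a shorter transcript (0 and 5 copies), and left out the exon 7 tag. The ratio is thus not that of the last tag alone. The exon 7 and exon 10 tags are shown because they divide by library, all on the plus strand.
Jam2, exon 7: CATGctatgctcagaggaaag
Jam2, exon 10, upstream: CATGttattaaaatattgtaa
Jam2, exon 10, downstream: CATGttgtacaggtcttcata

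In *Jup* the fall was not the same at each site. The main tag went from 368 to 56 copies, while the tag at the border of the coding region in exon 13, at chr11:100372302-100372322, had 23 and 18. The share of the latter was 5.88% in GC-1spg against 24.3% in GC-2spd (ts) (Fisher's exact test, FDR 8.3e-05). In *Pard3* a tag in exon 14, the last exon of a short transcript, had 135 and 69 copies, and the tag in exon 25 had 12 and 28, so that the share of the tag in exon 25 was 8.16% and 28.9% (Fisher's exact test, FDR 0.000345). Of those 12 and 28 copies, 3 and 13 matched the reference exactly, and the others matched it with 1 mismatch. In *Ctnnb1* a coding tag in exon 5 had 21 and 9 copies against 16 and 44 for the 3′ UTR tag, a share of 56.8% and 17% (Fisher's exact test, FDR 0.000988). The *Ctnnb1* shares leave out the abundant tag that it has in common with *Ulk4*. Over the 22 members described by tag, the main tag came from the site nearest the 3′ end of a transcript in 20 (90.9%), against 84% of the 7100 genes with at least 100 tags. The exceptions were *Cdh11* and *Nectin1*, which had fewer than 100 tags and were included because they were called. *Nectin1* had no tag at that site.

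**Figure D4:**
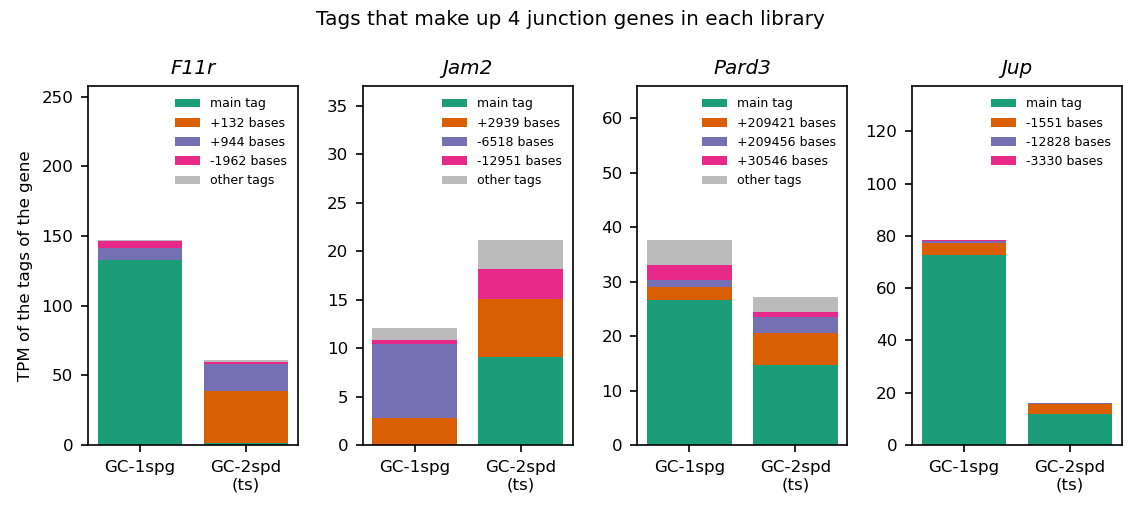
TPM of the tags that make up *F11r*, *Jam2*, *Pard3* and *Jup* in each library, 1 library per line. Colours stand for CATG sites, named by their distance in bases from the gene's main tag along the gene, with positive values downstream. For *F11r* the bar of GC-1spg is nearly all main tag, and that of GC-2spd (ts) is made of the sites downstream of it.

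Antisense tags matched 28 of the 52 members, with 1115 tags in GC-1spg against 887 in GC-2spd (ts). *Gja1* had the most, with 294 and 310, a log2 ratio of 0.18 (−0.06 to 0.41). For several called genes the antisense tags were unequal in the direction of the sense tags. *Cgn* had 75 and 5 antisense tags (log2 ratio −3.81, −5.47 to −2.52), and *Ctnnd1* had 195 and 91 (95% interval of the log2 ratio −1.37 to −0.63). *Cdh2* had 50 and 143 (1.62, 1.14 to 2.11), and *Cgnl1* 23 and 67. *Nectin2*, which was not called in sense, had 101 and 12 (−2.97, −3.97 to −2.10). Whether these are transcripts of the other strand or products of library preparation was not tested.

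The other genes of these pathways were taken from 7 lists of 150 genes, of which 82 were listed, and in GC-2spd (ts) 12 were called higher and 17 lower. Their median log2 ratio over the 62 listed in both libraries was 0.04, and the 29 called were 35.4% of those listed, against 19.5% of all genes. Those higher were 14.6% of the listed partners against 11.7% of all genes, and those lower 20.7% against 7.84%. In the wider cadherin superfamily, 16 of 38 were listed, 3 were higher and 3 lower. The protocadherin *Pcdh7* fell from 657 tags (130 TPM) to 10 tags (2.12 TPM), a log2 ratio of −5.94 (−7.00 to −5.05), while *Pcdh18* rose from 28 to 130 tags (2.32, 1.72 to 2.96). *Pcdh17* (0 and 51 tags) and *Cdh17* (0 and 21 tags) were at least 5.21-fold and 4.75-fold higher, and *Pcdh1* (47 and 0 tags) and *Celsr1* (31 and 0 tags) at least 5.65-fold and 4.59-fold lower. Protocadherins thus differed in both directions between the libraries.

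Among the partners of catenins and actin, 13 of 18 were listed, 1 was higher and 3 lower, where 11.7% of all genes were higher and 7.84% lower. *Plekha7*, which ties *Ctnnd1* protein to microtubules, rose from 11 to 48 tags (log2 ratio 2.23, 1.26 to 3.32), and *Add3* fell from 397 to 174 tags, as did *Ablim1* (169 to 76) and *Lmo7* (40 to 10). Of the relatives of nectins and JAM proteins, 7 of 11 were listed. *Cxadr*, an immunoglobulin-like receptor at tight junctions, fell from 602 to 199 tags (−1.50, −1.73 to −1.26), and *Cadm4* rose from 6 to 48 tags. Of 20 other transmembrane proteins of tight junctions, 4 were listed, and *Bves* (16 and 0 tags) was called lower.

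Scaffold and polarity proteins were the best represented list, with 29 of 32 listed, 7 higher and 3 lower. Over all genes, 11.7% were higher and 7.84% lower. *Mpp5*, which joins Crumbs proteins to their complex, fell from 180 to 31 tags (−2.44, −3.04 to −1.88), and *Pard6b* from 63 to 25. *Pard6g*, its relative, rose from 16 to 53 tags (1.83). *Ybx3*, a nucleic acid binding protein held at tight junctions by *Tjp1* protein, rose from 756 to 1984 tags (1.49, 1.37 to 1.62), and *Mpdz* rose from 65 to 168. *Llgl1*, *Amot*, *Cask* and *Tiam1* were the others called higher, at log2 ratios of 1.17 to 1.48. As with *Cgn* and *Cgnl1*, relatives in 1 family, *Pard6b* and *Pard6g*, were called in opposite directions.

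The desmosomal and gap junction partners gave 6 called genes among 13 listed, too few for a statement on either group. All 6 were lower in GC-2spd (ts), where 19.5% of all genes were called and 7.84% were called lower. Of 11 desmosomal partners 5 were listed, and *Perp* (561 to 129 tags, log2 ratio −2.02), *Ppl* (146 to 5 tags, −4.77) and *Evpl* (37 and 0 tags, at least 5.48-fold) were called; *Ppl* and *Evpl* encode periplakin and envoplakin of the cornified envelope. Of 20 gap junction partners 8 were listed and 3 were called, among them *Panx3*, a pannexin of skin and cartilage, with 27 and 0 tags, at least 4-fold lower. *Perp*, *Ppl* and *Evpl* are known from keratin-rich epithelia, and they were lower in the library in which *Krt19* and *Krt14* were lower. Their relation to the keratins was not tested.

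For genes listed in both libraries, scaling by TMM lowered the log2 ratio by 0.17, that by DESeq2 size factors by 0.16 and that by unambiguous sense tags by 0.08. Under TMM and DESeq2 scaling the sign of *Ctnna1* and *Ctnnb1* turned. With a spread between replicates assumed in edgeR's exact test as a coefficient of variation (BCV) of 0.2, 4 members stayed called, *Cgnl1* higher and *Jup*, *Cgn* and *Crb2* lower, and with 0.4 only *Crb2* did.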

How the data were processed

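DGE tags were obtained from 1 library of each cell line. The authors filtered out adaptors, tags of low quality and tags read once, and deposited the raw count (copy number) of each clean tag with its TPM, the count over all clean tags of the library. Not given in the sources used here is the program with which they matched tags. The depth, 5072149 and 4726808 clean tags, set the precision.

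All CATG+17 tags of the transcripts of GENCODE M21 (GRCm38) were taken on both strands. Deposited tags were matched exactly first and then with at most 1 mismatch, and were unambiguous where the best matches fell in 1 gene; these made up 54.7% and 57.9% of clean tags in sense. For the call a gene at 0 was given 0.01 TPM. The two-sided Audic-Claverie test replaced edgeR's quasi-likelihood test, which needs replicates and could not be fitted. Ratio intervals are exact (Clopper-Pearson), and bounds use the Poisson limit (one-sided, 95%) of as many unlisted tags as the gene has in the other library. The calling was tested on simulated data. Those data held counting error only, so that test does not cover a spread between replicates. The software was Python 3.11.15 (matplotlib 3.10.9, scipy 1.17.1, pandas 2.3.3 and numpy 2.4.6) and R 4.3.3 (DESeq2 1.42.0 and edgeR 4.0.16).

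The members, partner lists and marker lists were chosen with earlier results of these data known. Members that were called or had at least 100 tags over both libraries were described in full (22 of 52), the others by counts, and of the partners those called or, per list, the 3 with the most tags could be named. Some genes that this rule names are not reported one by one here. The alternatives are given in the closing section. Pathway enrichment, qPCR and protein data were not analysed here.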

Additional observations from a re-analysis of the deposited data

How the results depend on the processing

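No paired analysis was possible because each line has 1 library. The called members (5 higher and 5 lower in GC-2spd (ts)) changed most with an assumed spread between replicates: edgeR's exact test gave 1 higher and 3 lower at a BCV of 0.2, and 0 higher and 1 lower at 0.4. The partner genes (12 higher, 17 lower) gave 4 and 11 at 0.2, and 1 and 3 at 0.4. Shared tags counted in every gene left 3 members lower. A second tag of at least 50 copies left 1 gene of 4, against 5 of 12, whose tag use differed. With exact matches only, tag use differed in 4 genes. *Ctnna1* turned to −0.08 under TMM and −0.07 under DESeq2 scaling. *Ctnnb1* turned to −0.48 with the longest transcript, with sense matches preferred and with shared tags, to −0.08 with both strands, −0.12 under TMM, −0.11 under DESeq2 and −0.03 under unambiguous sense scaling. With the longest transcript per gene, *Pard3* turned to 0.65 and *Pkp2* to −5.89; that transcript left 3 and 0 tags of *Pkp2*, and 2 and 0 of *Gja1*, so these ratios rest on the 0.01 TPM put at 0. *Nectin2* was called lower under 5 alternatives, at −1.04 to −1.19. *F11r* was −2.75 with only the sites nearest the 3′ end of any transcript. That setting kept its first site (673 and 8 copies) and its last site (44 and 91 copies). It left out the second site (0 and 175 copies), so −2.75 is not the ratio of the last site. Exact matches, leaving out pseudogenes, the exact binomial test, a minimum of 10 tags and 0.5 added tags changed no call among the 22 members. The spread between cultures of a line could not be estimated, and the level of an unlisted gene was limited only to about 1 TPM for each tag.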
